A study of Mus musculus with 32 samples.

Results

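The enzymes of the purine nucleotide cycle and the reactions that feed and drain it were followed at the transcript level in 9 genes (*Nt5c1a*, *Ampd1*, *Ampd2*, *Ampd3*, *Adsl*, *Adssl1*, *Adk*, *Ak1* and *Ada*). These genes were chosen by name from the 54838 genes of the count table, with earlier results of these data known. RNA came from the tibialis anterior (TA) muscle of C57BL6/J mice, which is labelled only as skeletal muscle in the series. The *Mtm1* KO mice carry a deletion of exon 4 of *Mtm1*, the myotubularin gene that is lost in X-linked myotubular myopathy that shifts the reading frame and, being a germline allele, is present in all tissues, and the WT littermates carry no engineered allele on the same background. Counts are per gene, so *Mtm1* reads from its other exons remain. There were 4 WT and 4 KO libraries at each of 4 ages, P1, P14, P21 and P35 (days after birth), and none of the groups received a treatment. All 9 genes passed the filter on low counts in every comparison.

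Working muscle regenerates ATP in part by adenylate kinase, which makes ATP and AMP from ADP, and the AMP is then removed by AMP deaminase, which releases ammonia and leaves IMP. Adenylosuccinate synthetase joins IMP to aspartate, and adenylosuccinate lyase splits the product into AMP and fumarate, so that each turn of the cycle deaminates aspartate and supplies a citric acid cycle intermediate. AMP can instead be dephosphorylated to adenosine by a cytosolic nucleotidase, and adenosine is either phosphorylated back to AMP by adenosine kinase or deaminated to inosine by adenosine deaminase.

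The genes code for these steps as follows. *Ampd1* (GRCm38 chr3:103074014-103099720, plus strand) is the AMP deaminase of skeletal muscle, *Ampd2* (chr3:108074062-108086651, minus strand) the form found in many tissues and *Ampd3* (chr7:110768206-110812405, plus strand) the form first known from erythrocytes. *Adssl1* (chr12:112620045-112641360, plus strand) is the muscle adenylosuccinate synthetase and *Adsl* (chr15:80948490-80970946, plus strand) the lyase. *Ak1* (chr2:32621758-32635058, plus strand) codes for the cytosolic adenylate kinase, *Nt5c1a* (chr4:123201504-123216275, plus strand) for the cytosolic nucleotidase that acts on AMP in striated muscle, *Adk* (chr14:21052574-21448569, plus strand) for adenosine kinase and *Ada* (chr2:163726584-163750239, minus strand) for adenosine deaminase. *Ampd3* overlaps *Rnf141* on the opposite strand, and the sources used here do not say if reads were assigned by strand. *Rnf141* itself had adjusted P-values of 0.342, 0.647, 0.176 and 0.238 in KO against WT at P1, P14, P21 and P35 (edgeR quasi-likelihood test), with a log2 fold change of -0.13 at P35.

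*Nt5c1a* and *Ampd3* were the members with the lowest and the highest log2 fold change at P35, so the RefSeq sequence (GRCm38.p6) of the 250 bases before their start sites is shown, with capitals marking the E-box CANNTG, the motif that myogenic factors of the MyoD family recognise. Of the 3 start sites listed for *Ampd3*, the second and the third are given, since the window of the first runs into an annotated exon of the gene. The windows are chr4:123201235-123201484 for *Nt5c1a*, chr7:110772354-110772603 for the second and chr7:110773386-110773635 for the third *Ampd3* start, all on the plus strand.
Nt5c1a: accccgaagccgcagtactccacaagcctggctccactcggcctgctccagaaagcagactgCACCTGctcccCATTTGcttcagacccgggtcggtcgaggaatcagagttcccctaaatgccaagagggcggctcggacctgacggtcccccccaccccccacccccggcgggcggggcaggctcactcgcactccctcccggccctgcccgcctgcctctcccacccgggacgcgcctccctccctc
Ampd3 start 2: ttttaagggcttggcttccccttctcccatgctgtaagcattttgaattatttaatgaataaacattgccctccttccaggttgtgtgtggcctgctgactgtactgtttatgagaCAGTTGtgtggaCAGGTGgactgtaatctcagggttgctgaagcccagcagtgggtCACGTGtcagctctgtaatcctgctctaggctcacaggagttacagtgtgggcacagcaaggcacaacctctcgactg
Ampd3 start 3: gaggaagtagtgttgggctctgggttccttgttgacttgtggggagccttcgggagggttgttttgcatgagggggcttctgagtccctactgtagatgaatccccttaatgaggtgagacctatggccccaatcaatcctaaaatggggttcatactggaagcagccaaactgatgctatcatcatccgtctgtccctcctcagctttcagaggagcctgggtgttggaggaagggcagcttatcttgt
There were 2 matches to CANNTG before *Nt5c1a*, 3 before the second and 0 before the third start of *Ampd3*. A match lay in 66.2% of all 32851 windows of this length, so its presence is a description of the letters.

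Counts summed to 49321035 to 85631408 per library, and no pair of replicates agreed within sampling noise. *Mtm1* was lower in every KO than in every WT library of its age (log2 fold change -0.98 at P1, and -2.34, -2.71 and -2.56 at P14, P21 and P35). One library stood apart, replicate 4 of KO at P1, in which *Mtm1* was at 3.91 CPM (counts scaled to the size of the library) against 2.32 to 2.45 in the other KO and 5.26 to 6.02 in the WT libraries of that age. Fast fibre markers, which define this muscle, summed to at least 8526 CPM in each of the 32 libraries, and keratinocyte markers summed to 1515 to 5799 CPM at P1 but at most 6.3 CPM later. The levels below are CPM on 1 scale for all 32 libraries, set by TMM (trimmed mean of M-values), which scales libraries so that most genes do not move. Because RNA was taken from whole muscle, fewer cells of a type and less RNA per cell cannot be told apart.

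To place the members on a common footing, counts were divided by exon length and scaled to 1 common sum per library, the only scale here on which 2 genes can be compared. On this per-length scale the mean levels in WT at P35 were 1153 ± 114 for *Ak1*, 692 ± 66.8 for *Adssl1* and 459 ± 152 for *Ampd1* (SD, n=4). *Adsl* was at 45.2 ± 2.84, *Adk* at 18.5 ± 3.12 and *Nt5c1a* at 9.43 ± 2.08, and *Ampd3*, *Ampd2* and *Ada* were at 3.32 ± 0.718, 2.21 ± 0.203 and 0.761 ± 0.127. The 3 abundant transcripts were thus those of the muscle forms of adenylate kinase, adenylosuccinate synthetase and AMP deaminase, and *Ada* was the rarest, with 26 to 159 counts per library over the whole study. In KO at P35 the same 4 genes stood at the top, and *Nt5c1a*, at 1.31 ± 0.329, stood below *Ampd3* (14.9 ± 3.36) and *Ampd2* (4.98 ± 0.679), both of which it exceeded in WT, while *Adk* was at 11.7 ± 2.15.

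**Figure D1:**
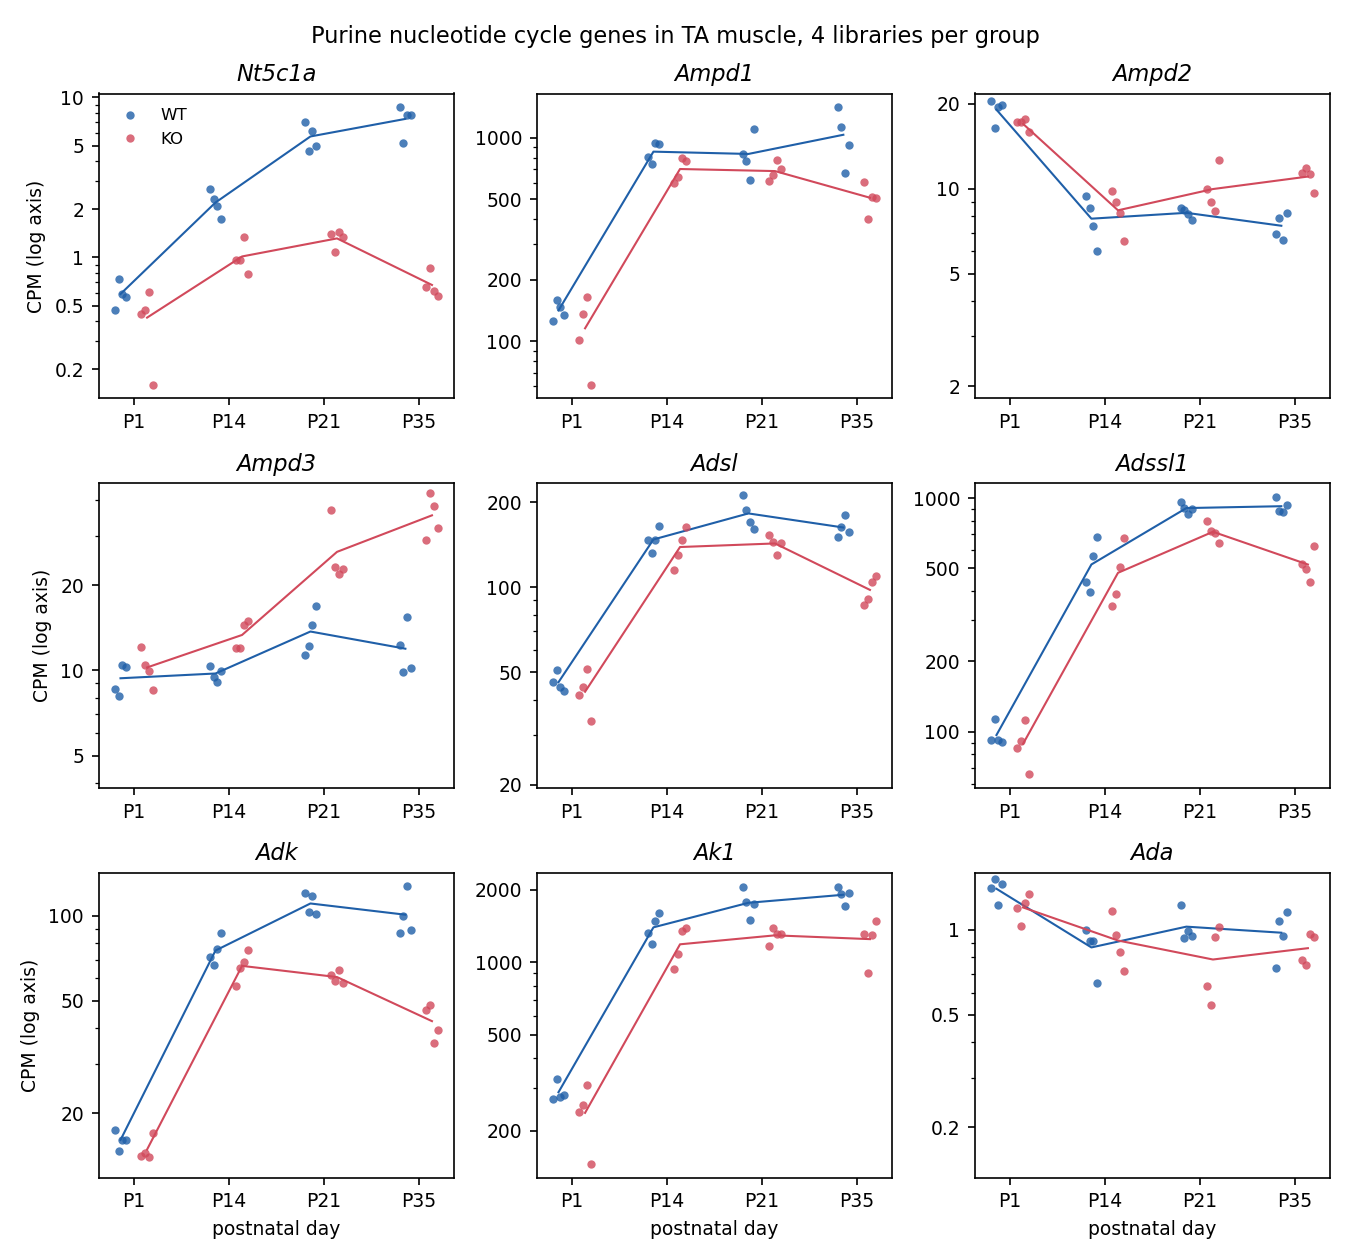
CPM (TMM scale, log axis) of the 9 members in each of the 32 libraries against age, with 1 panel per gene, points for libraries and lines through the group means of WT and KO mice. *Nt5c1a* climbed in WT to 5.20 to 8.66 CPM at P35 while KO libraries stood at 0.570 to 0.855, and *Ampd3* reached 28.9 to 42.4 CPM in KO against 9.85 to 15.4 in WT.

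In WT muscle most members rose between P1 and P14, and little moved after P21. Between P1 and P14, 8 of 9 members were called (adjusted P under 0.01 and a fold change over 1.5, edgeR quasi-likelihood test, here and below), against 55.1% of all genes tested. *Ampd1* rose from 142 ± 14.5 to 855 ± 96.7 CPM (log2 fold change 2.58, SE 0.114), *Adssl1* by 2.42, *Ak1* by 2.26, *Adk* by 2.22, *Nt5c1a* by 1.89 and *Adsl* by 1.67 on the log2 scale. *Ampd2* fell by 1.29 and *Ada* by 0.69 on the same scale (adjusted P 1.29e-05 and 0.00322), and *Ampd3* had 0.05 (adjusted P 0.679). *Ampd1* accordingly made up 88.1% ± 1.80 of the 3 AMP deaminase transcripts per length at P1 and 98.7% ± 0.264 at P14.

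From P14 to P21, 2 members were called in WT against 5.53% of genes tested. *Nt5c1a* rose from 2.20 ± 0.390 to 5.70 ± 1.09 CPM (log2 fold change 1.36, adjusted P 0.00128) and *Adssl1* from 520 ± 127 to 907 ± 46.2 CPM (0.79, adjusted P 0.0084). The call of *Adssl1* was lost without any 1 of 7 of the 8 libraries, the exception being replicate 4 of WT at P14 (adjusted P 0.0128 to 0.0301 among those 7). From P21 to P35, 0 members were called in WT (2.45% of genes tested), 0 had an unadjusted P under 0.05 (5174 of the 15039 genes tested) and DESeq2 also called 0.

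In KO muscle the members changed in the same directions over the first step, and the member called from P14 to P21 was not one called in WT. Whether the steps themselves differed between genotypes was tested as an interaction, given further below. Between P1 and P14, 6 members were called in KO (52.6% of genes tested), *Ampd1* by 2.57, *Adssl1* by 2.40, *Ak1* by 2.29, *Adk* by 2.13 and *Adsl* by 1.67 upward and *Ampd2* downward with -1.04. *Nt5c1a* had 1.25 with an adjusted P of 0.0105, and was called without replicate 3 or without replicate 4 of KO at P1. From P14 to P21 *Ampd3* was the 1 member called (7.04% of genes tested), from 13.4 ± 1.58 to 26.3 ± 7.23 CPM (0.96, adjusted P 0.00456). This call was lost without any 1 of 4 of the 8 libraries. Over the same step in WT, *Ampd3* went from 9.76 ± 0.549 to 13.7 ± 2.53 CPM and was not called. From P21 to P35, 0 members were called by edgeR (4.01% of genes tested) and 1, *Nt5c1a* at -0.96, by DESeq2 (1237 of 16442 genes). Under edgeR *Nt5c1a* had -0.95 (adjusted P 0.0104), *Adsl* -0.53 (0.00466) and *Adk* -0.50 (0.00956), the last 2 below the fold threshold. An unadjusted P under 0.05 was found for 6 members and for 6097 of the 15735 genes tested.

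A scaling by library totals in place of TMM moved the median log2 change of all genes from P1 to P14 to -0.85 in WT and -0.81 in KO, against -0.08 and -0.09. On that scale 9 members in WT and 7 in KO were called, against 11623 of 17435 genes tested in WT and 11246 of 17719 in KO. *Ampd3* fell there by 0.73 in WT and by 0.37 in KO, whereas with TMM *Ampd3* had 0.05 in WT and 0.35 (adjusted P 0.0281) in KO, neither of them called.

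The main question was how KO differed from WT at each age. At P1, 0 of 9 members were called (0.0442% of genes tested), 0 had an unadjusted P under 0.05 (1977 of the 18100 genes tested) and DESeq2 called 0. The ranges of WT and KO libraries overlapped for all 9 (8.61% of genes tested did not overlap). Log2 fold changes ran from -0.48 for *Nt5c1a* to 0.14 for *Ampd3*, with adjusted P-values of 0.523 to 0.801. Leaving out replicate 4 of KO at P1 also gave 0 calls.

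At P14, 0 members were called by edgeR (0.0318% of genes tested) and 3 had an unadjusted P under 0.05 (1072 of the 15728 genes tested). DESeq2 called 1 member (55 of 17844 genes). WT and KO libraries did not overlap for 2 members, *Nt5c1a* and *Ampd3* (4.84% of genes tested did not overlap). At P21, 3 were called, 1 higher and 2 lower (4.67% of genes tested, 3.18% higher and 1.5% lower), and 6 did not overlap (24.7%). At P35, 7 were called, 2 higher and 5 lower (16% of genes tested, 8.49% higher and 7.52% lower), and 8 did not overlap (39.6%). These counts of overlap are on the TMM scale. On the per-length scale *Adsl*, *Adssl1* and *Ak1* overlapped at P21 and at P35, and *Ampd1* overlapped at P35. The median log2 fold change of the members was -0.15, -0.12, -0.34 and -0.71 at P1, P14, P21 and P35, and that of all genes tested 0.01, 0.00, 0.01 and 0.04. The median absolute log2 fold change was 0.15, 0.18, 0.37 and 0.80 among members and 0.12, 0.09, 0.21 and 0.34 among all genes.

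**Figure D2:**
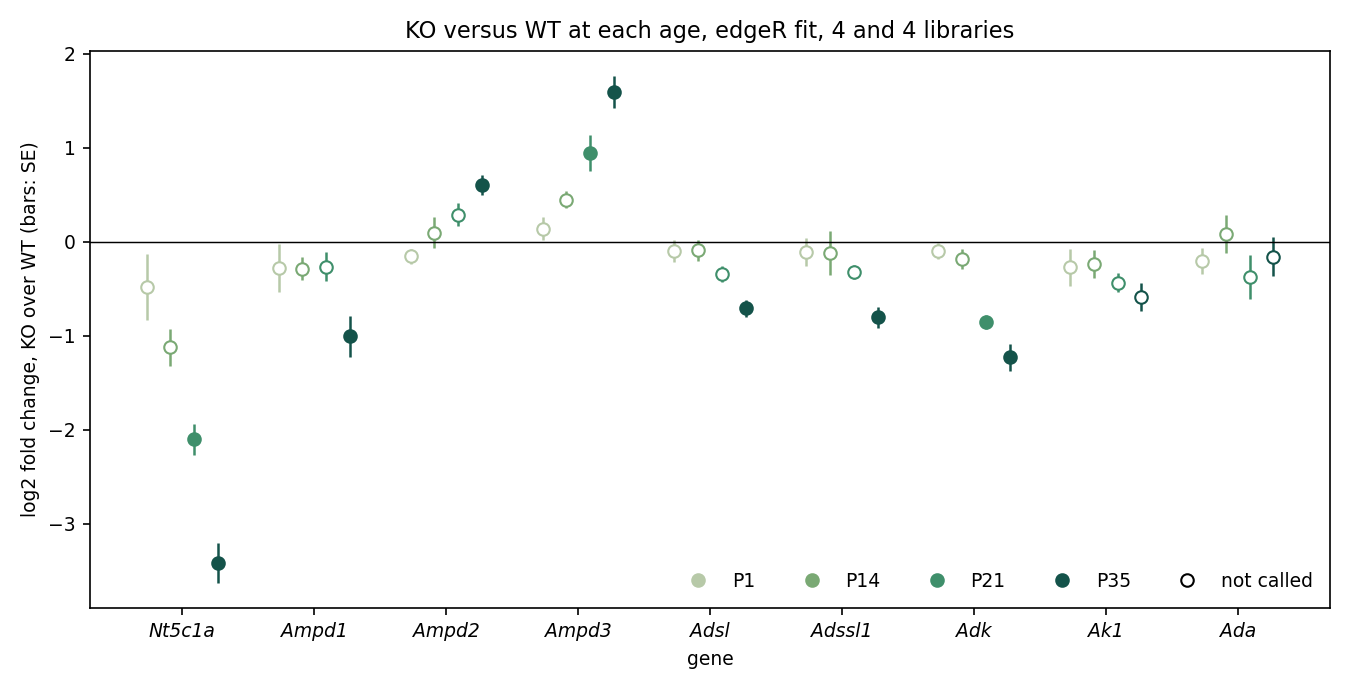
Log2 fold change of KO over WT at P1, P14, P21 and P35 for the 9 members, with bars for 1 SE on each side from the edgeR fit and filled points for calls. *Nt5c1a* had -0.48, -1.12, -2.10 and -3.41 at the 4 ages and *Ampd3* 0.14, 0.45, 0.94 and 1.59.

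The nucleotidase gene *Nt5c1a* showed the lowest log2 fold change of the members at every age. At P14 its level was 2.66, 2.31, 2.10 and 1.73 CPM in the WT libraries against 0.966, 0.957, 1.34 and 0.793 CPM in the KO libraries (log2 fold change -1.12, SE 0.197, adjusted P 0.123). All 4 KO libraries lay below the lowest WT library. Libraries with the same replicate number deviated together at P14 (r=0.19 to 0.59), although the labels give that number no meaning. In a fit with a block chosen for this reason from these data, the adjusted P was 0.0038 at a log2 fold change of -1.13. That fit called 98 genes in place of 5 over the whole table. Over the other settings at P14 the adjusted P of *Nt5c1a* ran from 9.47e-05 (DESeq2) to 0.315.

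At P21 *Nt5c1a* was at 7.02, 4.65, 6.14 and 4.98 CPM in WT against 1.40, 1.08, 1.44 and 1.33 CPM in KO (log2 fold change -2.10, SE 0.165, adjusted P 1.42e-04). At P35 it reached 8.66, 5.20, 7.76 and 7.72 CPM in WT while KO stood at 0.651, 0.855, 0.613 and 0.570 CPM, 10.7-fold lower (log2 fold change -3.41, SE 0.210, adjusted P 2.05e-05). The groups were apart at both ages, and this call was kept in every setting tried at P21 and P35 (log2 fold change -2.19 to -1.91 at P21 and -3.56 to -3.0 at P35). Ordered by mean level, the 8 groups ran KO P1, WT P1, KO P35, KO P14, KO P21, WT P14, WT P21 and WT P35. Only KO P21 to WT P14 and WT P14 to WT P21 were neighbours in this order whose libraries did not overlap, so KO muscle at P35 was not apart from newborn muscle of either genotype. Its counts, 18 to 356 per library, are low beside those of the abundant members.

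Adenosine kinase, which returns adenosine to AMP, was also lower in KO. *Adk* was at 121, 103, 117 and 102 CPM in WT against 61.7, 58.7, 64.5 and 57.8 CPM in KO at P21 (log2 fold change -0.85, SE 0.0749, adjusted P 2.24e-04). At P35 it was at 87.2, 100.1, 127 and 89.3 CPM in WT against 46.3, 48.2, 35.4 and 39.5 CPM in KO (-1.23, SE 0.144, adjusted P 2.78e-04, 2.34-fold lower). Every KO library lay below every WT library at both ages, and the call held in every setting tried. At P14 the libraries overlapped (56.5 to 75.4 CPM in KO and 67.0 to 86.9 CPM in WT, log2 fold change -0.18, adjusted P 0.824).

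*Ada*, which removes adenosine by deamination, lay between 0.541 and 1.51 CPM in all 32 libraries and was not called between genotypes at any age (log2 fold change -0.21, 0.08, -0.37 and -0.16, adjusted P 0.616, 0.987, 0.289 and 0.564). Scaling by library totals turned its value at P35 to 0.24 (adjusted P 0.326). On the per-length scale every KO library lay above every WT library at P35 (0.901 to 1.13 against 0.595 to 0.885). The sign thus depended on the scale, so no direction is given for this gene.

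The 3 AMP deaminase genes moved in different directions. *Ampd3* was at 10.4, 9.50, 9.14 and 9.99 CPM in WT against 12, 12, 14.5 and 15.0 CPM in KO at P14, where the groups did not overlap but the adjusted P was 0.183 (log2 fold change 0.45, SE 0.0923). At P21 it was at 11.3, 12.2, 14.5 and 16.9 CPM in WT against 37.1, 23.2, 22 and 22.9 CPM in KO (0.94, SE 0.188, adjusted P 0.00825). Replicate 1 of KO was the highest there, and the 3 others were still above every WT library. The call at P21 was lost with the replicate block (adjusted P 0.0220) and without any 1 of 6 libraries, replicates 1, 2 and 3 of WT and 2, 3 and 4 of KO (log2 fold change 0.84 to 1.02, adjusted P 0.0115 to 0.0277).

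At P35 *Ampd3* was at 12.3, 9.85, 15.4 and 10.2 CPM in WT against 28.9, 42.4, 38.3 and 32 CPM in KO, 3.02-fold higher (log2 fold change 1.59, SE 0.169, adjusted P 1.90e-04). No KO library came near the WT range, and the call was kept in every setting tried (1.49 to 2.0). *Ampd2* was at 6.94, 7.86, 6.60 and 8.19 CPM in WT against 11.4, 11.9, 11.2 and 9.69 CPM in KO at P35 (0.60, SE 0.106, adjusted P 0.0019). The groups did not overlap, but this value lies just over the fold threshold of 1.5 and fell under it with DESeq2 (0.58), in a fit of all 32 libraries (0.58) and without replicate 1 or 3 of WT or replicate 2 of KO (0.55 to 0.57). At P21 *Ampd2* had 0.29 (adjusted P 0.132).

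*Ampd1*, the muscle form, was at 834, 773, 624 and 1101 CPM in WT against 611, 656, 776 and 701 CPM in KO at P21, where the groups overlapped (log2 fold change -0.27, adjusted P 0.253). At P35 it was at 1411, 1134, 668 and 926 CPM in WT against 608, 400, 514 and 508 CPM in KO (-1.0, SE 0.218, adjusted P 0.00549). All KO libraries were below the lowest WT library, replicate 3, by a narrow margin for KO replicate 1. On the per-length scale the groups overlapped at P35 (290 to 649 in WT and 286 to 394 in KO). The call was lost with library totals (-0.60, adjusted P 0.0281) and without any 1 of 6 libraries, replicates 1, 2 and 4 of WT and 2, 3 and 4 of KO (-1.06 to -0.82, adjusted P 0.0110 to 0.0162).

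A ratio of 2 genes within a library does not depend on how libraries are scaled, so the AMP deaminases were also compared in this way. Per exon length, *Ampd3* counts were 0.549, 0.548, 1.46 and 0.694% of *Ampd1* counts in the WT libraries at P35. In the KO libraries of that age they were 3.0, 6.69, 4.70 and 3.97%, a 5.92-fold higher ratio (log2 difference 2.57). WT and KO did not overlap at P14, P21 or P35, with log2 differences of 0.73, 1.17 and 2.57, and overlapped at P1 (0.50, exact permutation P=0.2, two-sided). At each of the 3 later ages the exact permutation P was 0.0286, the smallest that 4 against 4 libraries allow, and 0.0686 after Benjamini-Hochberg adjustment over 12 ratio comparisons, so none passed 0.05 after adjustment. The ratio of *Ampd2* to *Ampd1*, also per exon length, was 0.334 to 0.671% in WT and 1.27 to 2.02% in KO at P35 (2.97-fold, same P-values). Even so, *Ampd1* made up 94.3% ± 1.67 of AMP deaminase transcripts per length in KO at P35 (98.7% ± 0.542 in WT), with *Ampd3* at 4.31% ± 1.38 (0.800% ± 0.423 in WT) and *Ampd2* at 1.43% ± 0.297 (0.512% ± 0.144 in WT).

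**Figure D3:**
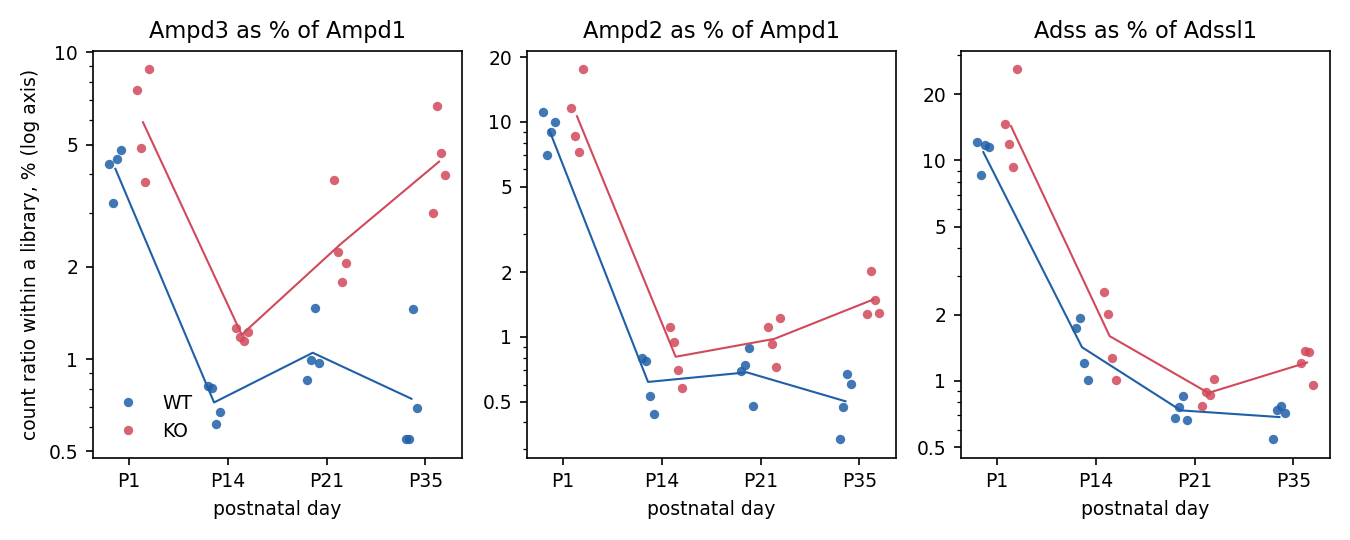
Counts per exon length of *Ampd3* and of *Ampd2* as a percentage of those of *Ampd1*, in each library by age and genotype (log axis, 1 point per library). The third panel gives *Adss* as a percentage of *Adssl1* in the same way. At P35 the KO libraries lie above all WT libraries in each of the 3 panels, with *Ampd3* at 3.0 to 6.69% in KO and 0.548 to 1.46% in WT.

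The genes of the return arm from IMP to AMP were both lower in KO at P35. *Adssl1* was at 1011, 878, 875 and 931 CPM in WT against 523, 495, 439 and 622 CPM in KO (log2 fold change -0.80, SE 0.115, adjusted P 6.87e-04). *Adsl* was at 151, 164, 180 and 157 CPM in WT against 86.4, 91.2, 105 and 109 CPM in KO (-0.71, SE 0.0946, adjusted P 4.91e-04). The groups did not overlap for either gene. At P21 *Adssl1* stood at 966, 908, 853 and 901 CPM in WT against 795, 724, 707 and 646 CPM in KO (-0.33, adjusted P 0.0155), and *Adsl* ranged from 160 to 213 CPM in WT and from 131 to 153 CPM in KO (-0.34, adjusted P 0.0242). On the TMM scale WT and KO were apart for both genes at P21 too, but neither was called. At P14 and P1 the ranges of both genes overlapped, with log2 fold changes of -0.12 and -0.11 for *Adssl1* and of -0.09 and -0.10 for *Adsl*. Relative to library totals the P35 values were -0.40 for *Adssl1* and -0.31 for *Adsl*, and neither was called. The P21 values on that scale were -0.14 for *Adssl1* and -0.15 for *Adsl* (edgeR, adjusted P 0.138 and 0.148). On the per-length scale the ranges of WT and KO overlapped for both genes at P21 and at P35. *Adss*, the synthetase gene of most other tissues, had 0.01 at P35. Its counts per exon length were 0.543 to 0.770% of those of *Adssl1* in WT and 0.960 to 1.37% in KO (1.77-fold, exact permutation P=0.0286, adjusted P 0.0686).

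*Ak1*, which makes AMP and ATP from ADP, was at 2060, 1927, 1710 and 1940 CPM in WT against 1307, 905, 1306 and 1481 CPM in KO at P35. The groups did not overlap, but the log2 fold change of -0.59 (SE 0.148) had an adjusted P of 0.0113. It was called by DESeq2 (-0.61), in the fit of all 32 libraries (-0.61) and without replicate 4 of KO (-0.69, adjusted P 0.0093), and it was -0.19 relative to library totals. At P21 *Ak1* stood at 2052, 1780, 1501 and 1741 CPM in WT against 1167, 1388, 1312 and 1316 CPM in KO. The groups again did not overlap, and *Ak1* was not called (-0.43, SE 0.101, adjusted P 0.0151). On the per-length scale *Ak1* ranged from 1144 to 1378 in WT and from 1030 to 1185 in KO at P21. The ranges at P35 were 1017 to 1297 in WT and 888 to 1266 in KO, so the groups overlapped at both ages. Relative to library totals the P21 value was -0.24. At P14 KO libraries spanned 939 to 1389 CPM and WT libraries 1191 to 1598 CPM (-0.24, adjusted P 0.853).

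The order of the 8 groups by mean CPM on the TMM scale differed between members. *Adk* and *Adsl* were lowest in newborn muscle of both genotypes, then came KO at P35 (35.4 to 48.2 CPM for *Adk* and 86.4 to 109 CPM for *Adsl*). For both genes KO at P35 lay apart from the newborn groups below it and from all 5 groups above it. On the per-length scale this held for *Adk* only. There *Adsl* in KO at P35 (35.3 to 43.4) overlapped WT P1 (35.2 to 38.0), KO P1 (27.6 to 39.4) and WT P35 (42.7 to 49.2). *Ampd1* had KO at P35 at the same place, apart from its neighbours WT P1 and KO P21 but touching KO at P14 (400 to 608 against 599 to 796 CPM). For *Adssl1* and *Ak1*, KO at P35 came next above KO at P14, which it overlapped, and above both newborn groups. *Ampd3* ran the other way, with KO P21 and KO P35 above the other 6 groups, which overlapped their neighbours. *Ampd2* was highest in newborn muscle (15.8 to 17.6 CPM in KO and 16.5 to 20.4 CPM in WT), followed by KO at P35 (9.69 to 11.9 CPM) with no overlap. Neighbouring groups of *Ada* overlapped throughout.

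**Figure D4:**
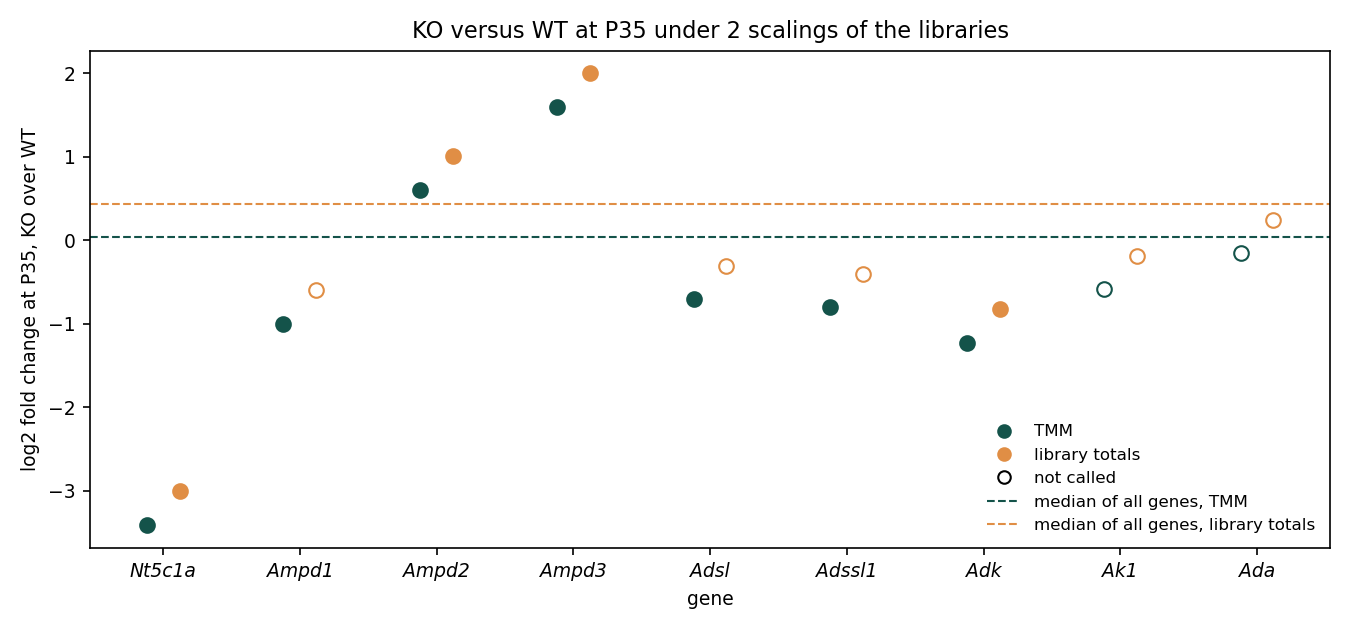
Log2 fold change of KO over WT at P35 for the 9 members with TMM scaling and with library totals, with filled points for calls. Library totals move the median of all genes from 0.04 to 0.44, and *Nt5c1a*, *Adk*, *Ampd2* and *Ampd3* are called with both, whereas *Ampd1*, *Adsl* and *Adssl1* are called with TMM only.

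Scaling moved the results at P35. When libraries were scaled by their totals, the median of all genes was 0.44 in place of 0.04, and 4351 genes were called higher and 326 lower, against 1324 and 1172. Members called fell from 7 to 4, with *Nt5c1a* at -3.0, *Adk* at -0.82, *Ampd2* at 1.01 and *Ampd3* at 2.0. The corresponding medians were 0.04, 0.09 and 0.20 at P1, P14 and P21, and the same number of members as with TMM, 0, 0 and 3, was called. Mitochondrially encoded genes made up 15.6% ± 2.34 of the WT and 10.4% ± 0.117 of the KO counts at P35.

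Whether the difference between KO and WT itself changed with age was tested as an interaction in 1 fit of all 32 libraries. Between neighbouring ages 0 members passed (adjusted P under 0.01, with 0.0161%, 0.425% and 0.463% of genes passing from P1 to P14, P14 to P21 and P21 to P35), and 0, 3 and 5 had an unadjusted P under 0.05. Of the 18583 genes tested, 1201, 2398 and 3243 had an unadjusted P under 0.05 over these steps. The smallest adjusted P-values were those of *Adk* from P14 to P21 (-0.69, 0.0227) and *Nt5c1a* from P21 to P35 (-1.33, 0.0369). Over the longer step from P14 to P35, a contrast added after the data had been seen, 4 members passed (8.53% of genes). The differences were -2.32 for *Nt5c1a* (SE 0.347, adjusted P 4.4e-05), -1.07 for *Adk* (SE 0.158, adjusted P 3.9e-05), 1.12 for *Ampd3* (SE 0.232, adjusted P 0.00136) and -0.64 for *Adsl* (SE 0.162, adjusted P 0.00623). The *Adsl* result was lost without any 1 of 9 of the 16 libraries of these ages, with library totals (-0.30, adjusted P 0.0549), in a fit of those 16 libraries alone (-0.64, adjusted P 0.0103) and with no filter on low counts (-0.64, adjusted P 0.0109). With library totals *Ampd2* passed in its place (0.83, adjusted P 0.0077). *Adssl1* had -0.71 (adjusted P 0.0415), *Ampd1* -0.74 (0.0953), *Ampd2* 0.48 (0.0663), *Ak1* -0.38 (0.289) and *Ada* -0.26 (0.557).

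Other genes of purine metabolism were followed in the same way. A list of 59 genes in 8 functional groups had 0 of 54 tested called at P1, 0 of 53 at P14 and 2 of 53 (3.77%) at P21. The shares of all genes called at these ages were 0.0442%, 0.0318% and 4.67%. An unadjusted P under 0.05 was found for 7 genes of the list at P1 and 4 at P14. Of all genes, 1977 of 18100 at P1 and 1072 of 15728 at P14 reached it. The 2 called at P21 were *Nt5c*, a cytosolic nucleotidase (6.20 ± 0.614 CPM in WT against 9.81 ± 1.47 in KO, log2 fold change 0.67, adjusted P 0.0068), and *Prkab2*, a beta subunit of the AMP-activated kinase (326 ± 61.8 and 185 ± 23.1 CPM, -0.80, adjusted P 0.0040). At P35, 15 of 53 were called, 4 higher and 11 lower, or 28.3% against 16% of all genes tested. The list was chosen with earlier results of these data known, so this share is only a description.

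All 5 genes for the handling of fumarate and aspartate, the partners of the cycle, were called lower at P35, with log2 fold changes of -0.76 for fumarase (*Fh1*), -0.63 and -0.87 for the malate dehydrogenases *Mdh1* and *Mdh2*, and -0.76 and -0.79 for the aspartate aminotransferases *Got1* and *Got2*. *Fh1*, for example, was at 394 ± 32.1 CPM in WT against 229 ± 13.1 CPM in KO. At P21 the median of this group was -0.45, with 0 of 5 called by edgeR and all 5 at an unadjusted P under 0.05 (5329 of the 15179 genes tested). With library totals the P35 median was -0.37 and 0 of 5 were called, although *Fh1* (-0.36) and *Mdh2* (-0.47) had adjusted P-values of 0.0042 and 0.0053.

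Of 8 nucleotidase and breakdown genes tested at P35, 2 were called higher and 0 lower, *Nt5c* (6.46 ± 0.207 and 13.3 ± 3.32 CPM, 1.06) and *Nt5c2*, a nucleotidase that prefers IMP and GMP (10.9 ± 1.51 and 18.9 ± 2.69 CPM, 0.82). Both changed in the direction opposite to *Nt5c1a*. Of 7 AMP-activated kinase subunits, the catalytic subunit *Prkaa1* was higher (26.2 ± 0.807 and 46.8 ± 5.83 CPM, 0.86) and the catalytic subunit *Prkaa2* (452 ± 46.9 and 252 ± 5.99 CPM, -0.82) and *Prkab2* (568 ± 136 and 196 ± 27.6 CPM, -1.51) were lower. The nucleoside transporters *Slc29a2* (-0.96) and *Slc28a2* (-0.70) were the 2 called among 8 adenosine transport and receptor genes, both lower. *Hprt*, which salvages hypoxanthine to IMP, was higher (0.73), whereas *Ppat*, the first committed enzyme of purine synthesis, was lower (-0.65), and among the other nucleotide kinases the mitochondrial *Ak3* was lower (-0.94). With library totals 4677 of all 15595 genes tested were called, 4351 higher and 326 lower. Of the 53 purine genes, 17 were called on that scale, 16 higher and 1 lower (*Prkab2*, -1.11). The other genes called lower with TMM kept negative values on that scale but fell under the fold threshold.

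**Figure D5:**
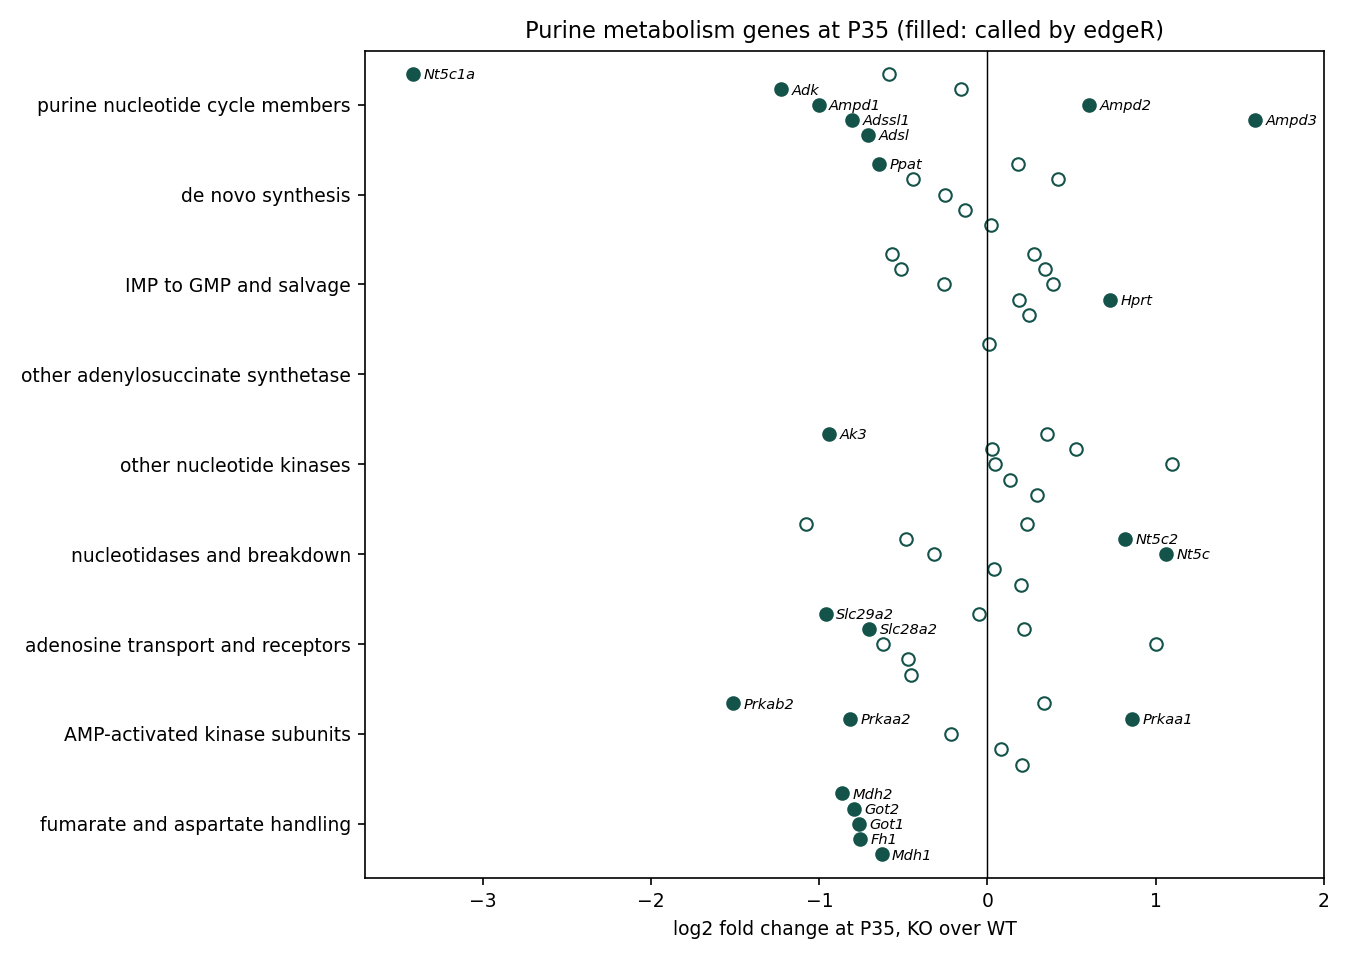
Log2 fold change of KO over WT at P35 for the members and for the other purine metabolism genes tested, 1 row per functional group, with filled and named points for edgeR calls. The 5 fumarate and aspartate genes lie between -0.87 and -0.63, and *Nt5c1a* at -3.41 lies left of all other genes shown.

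Markers of fibre and cell types moved with genotype at the same ages, and their part in the results above was not tested. At P35, 6 of 7 slow fibre markers were higher in KO (median log2 fold change 4.36, summed level 118 to 270 CPM in WT against 1012 to 2398 CPM in KO), whereas 0 of 8 fast fibre markers were called by edgeR (median -0.55, 4 with an unadjusted P under 0.05), with summed levels of 114090 to 173762 CPM in WT against 69448 to 105435 CPM in KO. Of 4 markers of immature fibres, 3 were called higher and 1 lower at P35, the latter being *Actc1*, and their sum was 2181 to 2755 CPM in WT and 242 to 746 CPM in KO. Of 7 genes that respond to denervation, 4 were higher at P21 and 7 at P35. Macrophage markers were higher for 3 of 8 genes at P21 and 4 of 8 at P35 (107 to 135 CPM in WT against 138 to 206 CPM in KO at P35), adipocyte markers for 3 of 4 at P35 (2.0 to 8.3 and 12.7 to 48.3 CPM), and 2 of 5 endothelial markers were lower at P35. Erythroid markers, measured because *Ampd3* is an erythrocyte form, had summed levels of 190 to 584 CPM in WT against 222 to 433 CPM in KO at P35 and of 3179 to 4357 and 1627 to 3284 CPM at P21. None of the 8 was called at P21 (5 had an unadjusted P under 0.05, with a median log2 fold change of -0.56) and none of the 5 tested at P35 (1 had an unadjusted P under 0.05, with a median of -0.56). Of all genes tested, 5329 of 15179 at P21 and 7848 of 15595 at P35 had an unadjusted P under 0.05.

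Across the 32 libraries, which fall into clusters by age and genotype, the genes whose log2 CPM followed each member most closely were listed by Pearson's r as a description. *Nt5c1a* ran closest to *Cyb5d1* (r=0.957) and *Faap100* (0.947). *Ampd1* ran with the fast fibre genes *Mybpc2* (0.991) and *Actn3* (0.989) and with *Camk2a* (0.990), and *Ampd3* with *Nfkb2* (0.908), *Mvp* (0.906) and *Map3k14* (0.903). The first gene was *Immt* for *Adsl* (0.993), *Gfm1* for *Adssl1* (0.995), *Mindy2* for *Adk* (0.992), *Lrrc20* for *Ak1* (0.995), *Emp3* for *Ampd2* (0.962) and *Ptprs* for *Ada* (0.801).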

How the data were processed

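RNA of TA muscle from 4 WT and 4 *Mtm1* KO mice at each of 4 ages was sequenced from poly(A)-selected, directional libraries as paired ends. Per the submitters' processing notes, the authors used STAR 2.6.1, RSEM 1.2.22, DESeq2 and GRCm38, and the deposited table holds expected counts per gene and library, neither scaled nor pooled. HTSeq is named as the counter in the methods. The annotation release and the strand setting are not given in the sources used here. Symbols for 54809 of 54838 genes, coordinates and exon lengths came from GENCODE M21 of GRCm38, and 0 columns were left unused.

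Expected counts (4.26% not whole) were rounded to whole numbers. Fits were made with edgeR 4.0.16 under R 4.3.3. Each comparison was a pairwise fit of 4 and 4 libraries with filterByExpr, TMM and the two-sided quasi-likelihood test, Benjamini-Hochberg adjusted over all genes tested. A gene was called at an adjusted P under 0.01 and a fold change over 1.5. Interactions used 1 fit of 32 libraries (18583 genes) and an adjusted P under 0.01. SE is that of the log2 fold change. Ratios were tested by exact permutation over 70 assignments. Total counts of 49321035 to 85631408 per library leave little counting error except for *Nt5c1a* and *Ada*. Reads carried no stated molecular identifiers, and P-values measure only the spread between these libraries.

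Groups, ages (P1 included, which the methods do not list) and replicate numbers came from the labels. At P14, libraries of WT and KO with the same number deviated together (r=0.19 to 0.59 over the 4 pairs, mean 0.33), although the labels do not say what a number stands for, so the block is given there. In the other comparisons not every pair was over 0.1.

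The members and the marker and gene lists were chosen with earlier results of these data known. Named are the 9 members, all genes of the wider purine list called between genotypes at any age, and genes from the 3 with the highest r for each member, namely all of them for *Ampd1* and *Ampd3*, the first 2 for *Nt5c1a*, whose other gene is not reported here, and the first for each other member. In addition, *Adss* and *Rnf141* were named for the ratio and the overlap, and *Fh1* and *Mdh2* under library totals after their values were seen. The *Ampd1* promoter was not used here.

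Alternatives were DESeq2 1.42.0, calls by both tools, RLE size factors, library totals, other filters, 1 fit of all libraries, the replicate block, a threshold of 0.05 with no minimum fold, 2 counts added to each count of a ratio, and leaving out each library. The contrast of P35 with P14 and library totals for the wider list were added after seeing the data. The fits were tested on simulated counts first. Figures and summaries used python 3.11.15, pandas 2.3.3, scipy 1.17.1 and matplotlib 3.10.9.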

Additional observations from a re-analysis of the deposited data

Results flagged for a closer look

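Within groups of 4 libraries, 4 of 72 groups held a member value whose gap to the nearest other library exceeded Dixon's 95% critical value, and chance alone gives about 1 in 20 groups, or 3.6 here. *Ampd3* was at 37.1 CPM in replicate 1 of KO at P21 against 22 to 23.2 CPM in the 3 others. *Adssl1* and *Ak1* were at 113 and 330 CPM in replicate 2 of WT at P1 against 90.7 to 91.9 and 272 to 281 CPM. *Adk* was at 17.0 CPM in replicate 4 of KO at P1, the library in which *Mtm1* was also higher than in the other KO libraries, against 14.0 to 14.5 CPM.

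The difference between KO and WT changed between P14 and P35 for 4 members, by the interaction test added after the data had been seen (edgeR, adjusted P under 0.01). The changes were -2.32 for *Nt5c1a*, 1.12 for *Ampd3*, -0.64 for *Adsl* and -1.07 for *Adk* on the log2 scale.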

How the results depend on the processing

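Depth limited *Nt5c1a* and *Ada*, with as few as 18 and 26 counts in a library, more than the other members. The number of members called moved by over 1.5 times in these settings. At P14 it was 1 in place of 0 with DESeq2 and 1 with the replicate block, the gene being *Nt5c1a*. At P21 it was 6 in place of 3 at an adjusted P under 0.05 with no minimum fold, and at P35 it was 4 in place of 7 with library totals. From P14 to P21 the replicate block gave 1 in place of 2 in WT and 0 in place of 1 in KO, and from P21 to P35 in KO 1 in place of 0 was called with DESeq2, with RLE size factors and in the fit of all 32 libraries.

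Over all genes, calls between genotypes changed by over 1.5 times with DESeq2 (98 in place of 8 at P1, 55 in place of 5 at P14 and 1076 in place of 709 at P21), the block (2 at P1 and 98 at P14), no filter (14 and 10), the fit of all libraries (2 at P1), the threshold of 0.05 (44, 15, 3187 and, in place of 2496, 6461 at P35) and library totals (1157 at P21 and 4677 at P35).

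The labels state no pairing by replicate number at any age. Outside P14 same-numbered libraries had a mean r of -0.14 at P1 and within 0.1 of 0 elsewhere, with 0 to 4 of 8 libraries closest to their own number. Beyond the counts above, the replicate block ended the calls of *Ampd3* at P21 (0.93, adjusted P 0.0220), of *Adssl1* from P14 to P21 in WT (0.82, 0.0272) and of *Ampd3* from P14 to P21 in KO (0.93, 0.0162), brought that of *Nt5c1a* from P1 to P14 in KO (1.32, 0.0048), and changed no other call of a member between genotypes. The smallest P a test over 4 same-numbered ratio differences can give is 0.125.

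Signs turned with library totals for *Ada* at P35 (0.24) and from P14 to P35 (0.071), and for *Ampd3* from P1 to P14 in WT (-0.73) and KO (-0.37). They also turned for *Ampd2* from P14 to P21 in WT (-0.12), *Adssl1* from P21 to P35 in WT (-0.047) and *Ak1* from P21 to P35 in KO (0.092). Library totals move all genes together, and the cause of each turn was not tested.

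Without 1 library at a time, the members called numbered 0 at P1 and P14, from 2 to 3 (P21) and from 5 to 7 (P35), and over the age steps 7 to 8, 1 to 3 and 0 in WT and 6 to 7, 0 to 2 and 0 to 1 in KO, with 3 to 4 for P14 to P35. Signs of values near 0 turned, within log2 ranges of -0.25 to 0.0080 for *Adssl1* at P1. At P14 they were -0.011 to 0.20 for *Ampd2*, -0.34 to 0.031 for *Adssl1* and -0.058 to 0.17 for *Ada*. In WT they were -0.016 to 0.10 for *Ampd3* from P1 to P14, -0.20 to 0.080 for *Ampd1* and -0.035 to 0.16 for *Ampd2* from P14 to P21, and -0.034 to 0.037 for *Adssl1* and -0.17 to 0.031 for *Ada* from P21 to P35. In KO they were -0.12 to 0.016 for *Ampd1* and -0.044 to 0.11 for *Adsl* from P14 to P21, and -0.14 to 0.090 for *Ak1* and -0.00084 to 0.30 for *Ada* from P21 to P35. For the change of the KO effect from P1 to P14 they were -0.081 to 0.12 for *Adsl* and -0.14 to 0.0048 for *Adk*.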
